A study of Mus musculus with 11 samples.

Results

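The genes described here are the 10 rows of the counts table that encode the signalling chains of the T cell receptor complex (Cd3d, Cd3e, Cd3g and Cd247), both chains of the CD8 coreceptor (Cd8a and Cd8b1), the receptors Cd5 and Cd6, and the proximal kinases Lck and Zap70. They were chosen by gene name alone, out of 54532 genes in the table, and all 10 were among the 13129 genes with enough counts to be tested.

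The T cell receptor has no signalling domain of its own. Its alpha and beta chains associate with CD3 epsilon, delta and gamma and with a zeta chain dimer encoded by Cd247, whose tyrosine motifs are phosphorylated by the kinase LCK and then bound by ZAP-70. CD8, an alpha-beta dimer on conventional CD8+ T cells, binds MHC class I and carries LCK to the receptor, whereas CD5 and CD6 are scavenger receptor family members that associate with the complex and tune its signal. CD8+ Tregs are regulatory CD8+ T cells of the mouse that carry Ly49 receptors, which are otherwise typical of NK cells.

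The study asked how the transcriptome of CD8+ Tregs differs with age, using bulk RNA sequencing of CD8+CD44+Ly49+CD122+ cells sorted from the spleens of wild-type (WT) mice. The 11 libraries fall into 4 groups, with 3 libraries each of young males, young females and middle-aged females and 2 of middle-aged males. The labels give the young mice as 2 to 3 months old and call the other group old, at 10 to 12 months; the term middle-aged follows the study's text. RNA was extracted with a Zymo kit and made into libraries with a Takara SMARTer kit for small inputs. No group carries an allele or treatment that the labels record, and the study's methods give C57BL/6J as the wild-type strain. The methods also describe bead selection on CD8 and staining for CD8, CD44, Ly49 and CD122 before the sort, so the presence of Cd8a and Cd8b1 transcripts is no finding, while CD3 and the T cell receptor are not named among the stains.

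The libraries held 6135736 to 24394532 counts, with young male 1 and young female 1 the shallowest, so that 3 counts (the limit that a count of 0 allows) corresponded to 0.119 to 0.543 CPM, which are counts scaled to the size of the library (here after TMM scaling). The summed level of 10 genes that define the sorted cells ranged from 4904 to 6313 CPM in young libraries and from 4791 to 6855 in the middle-aged ones. The sum was mostly Il2rb, Cd8b1 and Cd8a, with young means of 1899, 1885 and 845 CPM, and Cd8a and Cd8b1 also belong to the set described here. Ikzf2, which encodes Helios, had a mean of 34.5 CPM in young and 23.3 in middle-aged libraries. Among the Klra genes, which encode Ly49 receptors, Klra3 had means of 87.4 and 164 CPM in the same order. Klra1 had 121 and 145, Klra7 had 319 and 397, and Klra9 had 71.9 and 86.7, whereas Klra6 had 211 and 174. Of the 10 genes, 6 had positive and 4 negative log2 fold changes, so the sum does not show that each was steady.  Marker genes of CD4 T cells summed to at most 46.5 CPM in any library, and Cd4 itself reached 18.7 CPM. Middle-aged female 2 stood apart, with 1209 CPM summed over 9 myeloid genes against at most 335 in the other 10 libraries, and 352 CPM over 5 plasma cell genes against at most 159. Lyz2 alone held 1058 CPM of that myeloid sum. Among the other myeloid genes, Csf1r, Adgre1, C1qa, C1qb and Fcgr1 had their highest values in young libraries, and Cd68, Itgam and Cd14 in middle-aged ones. NK cell genes summed to 99.8 to 359 CPM in the young group and to 63.3 to 235 in the middle-aged group. Genes of erythroid cells and platelets summed to 29.7 to 157 CPM (median 36.6) in the young group and to 1.28 to 38.2 (median 9.22) in the middle-aged group. Of their 7 tested genes, 4 were lower in middle-aged libraries at an unadjusted p under 0.05, where 0.990% of all genes tested were, and the other 3 had positive log2 fold changes. The hemoglobin genes Hba-a1 and Hbb-bs had means of 28.6 and 21.5 CPM in young and 4.53 and 3.18 in middle-aged libraries. The platelet genes Pf4, Ppbp and Itga2b went the other way, with means of 0.321, 0.769 and 0.825 CPM in young and 1.30, 1.99 and 3.53 in middle-aged libraries. No marker gene that was tested passed an adjusted p under 0.05 for age in edgeR, and the part of these other cells in the results was not tested. Since these are bulk samples, fewer cells of a type and less RNA per cell cannot be told apart.

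All 10 genes were abundant. Per kilobase of the length given in the table, Cd8b1 had the highest mean level over the 11 libraries, at 1206 CPM per kb, followed by Lck at 927, Cd3d at 777, Cd3g at 422, Cd8a at 228, Cd3e at 198, Cd6 at 131.3, Cd5 at 130.7, Zap70 at 111 and Cd247 at 54.9 CPM per kb. Some neighbours in this order kept their places in every library, and others did not. Cd3d was above Cd3g, Cd3g above Cd8a, and Zap70 above Cd247 in 11 of 11 libraries. Cd6 and Cd5 could not be ranked, since Cd6 was above Cd5 in 7 of 11 libraries, and Cd8b1 was above Lck in 8 of 11. Every one of these genes lay at or above the 94.9th percentile of mean expression among the genes tested, with Cd5 the lowest and Lck the highest of them at the 99.9th.

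With age, no gene of the set passed the test. Of the 10 genes, 0 were called at an adjusted p under 0.05 in edgeR's quasi-likelihood test with sex as a second term, where 0.0229% of all genes tested were called. At an unadjusted p under 0.05 the count was also 0 of 10, where 2.99% of all genes passed, and the lowest unadjusted p among them was 0.250, for Cd5. DESeq2 and limma voom likewise called 0 of the 10 genes, where they called 0.853% and 1.05% of all genes tested. The young and middle-aged values overlapped for all 10 genes, where 1.31% of all genes had groups that did not overlap. The fitted log2 fold changes, always given as middle-aged over young, were positive for 3 genes and negative for 7, with a median of -0.05 beside a median of 0.0028 over all genes tested. The median absolute log2 fold change was 0.0763 in the set and 0.210 over all genes tested. The 10 genes lay at or above the 94.9th percentile of mean expression, and no reference of genes at a like level was taken. The intervals state what the 11 libraries could not tell apart: they were narrowest for Zap70, from 0.745-fold to 1.26-fold, and widest for Cd3d, from 0.432-fold to 1.61-fold.

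**Figure D1:**
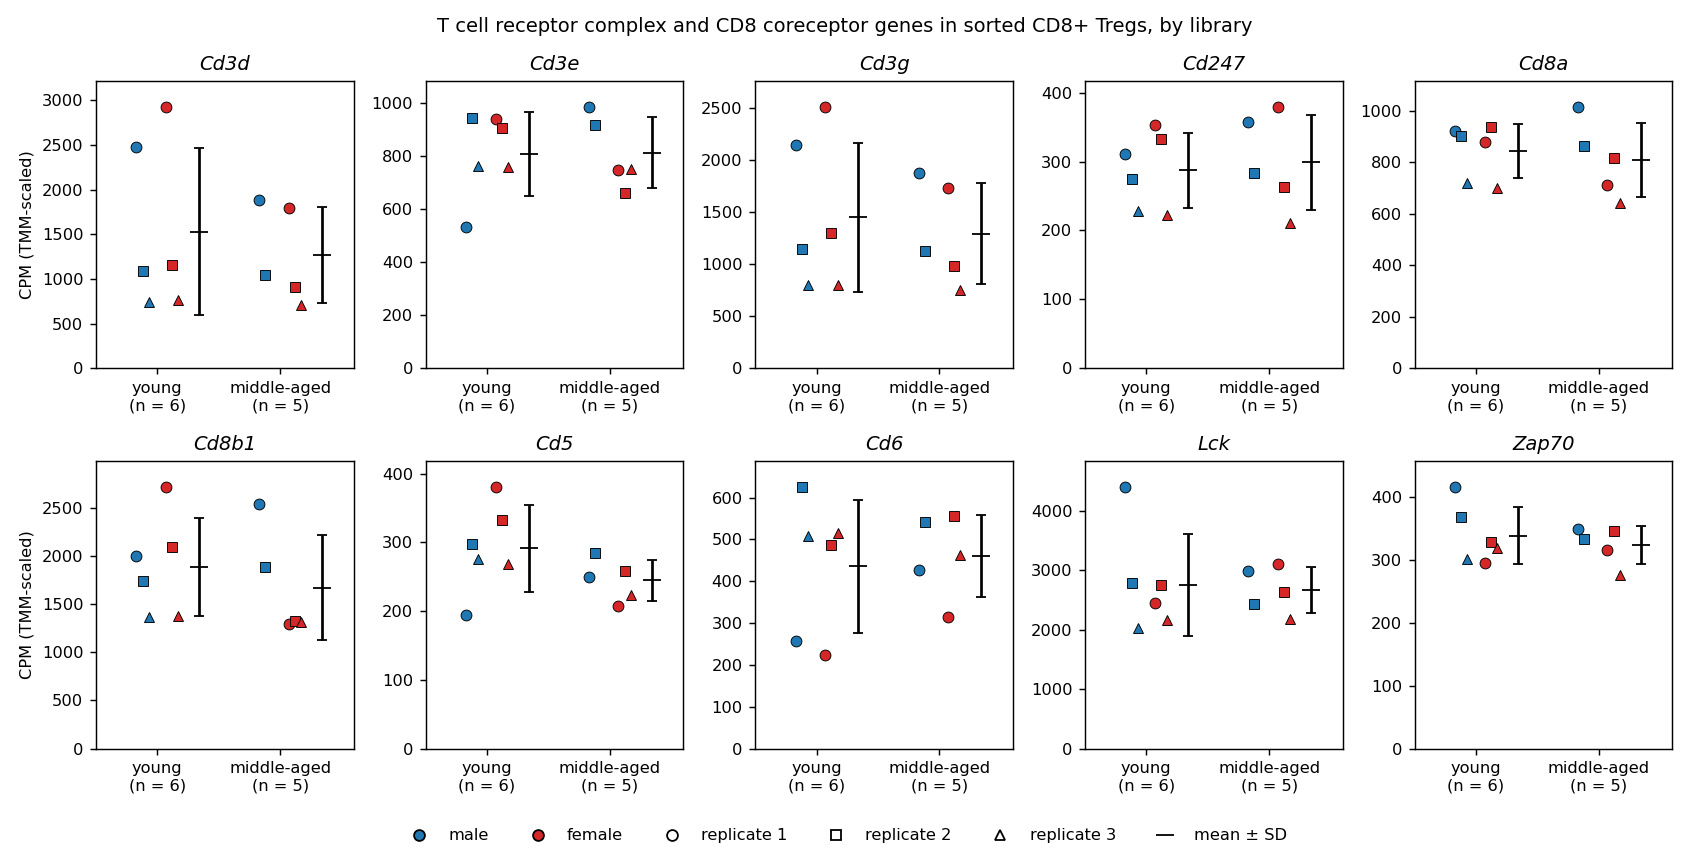
Each panel plots 1 gene in CPM (TMM-scaled, linear axis from 0), with 1 point per library, young on the left and middle-aged on the right, coloured by sex and shaped by replicate number, and the mean ± SD of each age group beside the points. The age groups overlap in all 10 panels, and the circles (replicate 1) stand above all other points for Cd3d and Cd3g and below them for Cd6.

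CD3 delta and CD3 gamma each pair with CD3 epsilon inside the complex. Cd3d (chr9:44981786-44987339, plus strand) had 743 CPM in the lowest, 1127 in the median and 2923 in the highest of the 6 young libraries. The middle-aged libraries had 1888, 1047, 1795, 913 and 712 CPM. The middle-aged values lay within the young range except for the lowest of them, and the highest values of both groups came from libraries numbered 1. The mean was 1526 ± 935 CPM (SD, n = 6) in young and 1271 ± 535 (SD, n = 5) in middle-aged libraries, a log2 fold change of -0.26 with a standard error of 0.43 and a 95% interval from -1.21 to 0.68.

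Cd3g (chr9:44969572-44980431, minus strand) had 797 to 2511 CPM in young libraries, with a median of 1223. It had 1880, 1128, 1733, 984 and 750 CPM in the middle-aged libraries. As for Cd3d, the groups overlapped and the highest values in each came from the same libraries. The log2 fold change was -0.16 with a standard error of 0.38.

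Cd3e (chr9:44998740-45009627, minus strand) encodes CD3 epsilon, the chain shared by both CD3 pairs. It had 533 CPM in the lowest, 833 in the median and 944 in the highest young library. The middle-aged libraries had 984, 915, 748, 661 and 752 CPM, so both groups covered nearly the same range. The means were 807 ± 158 CPM (SD, n = 6) and 812 ± 133 (SD, n = 5), and the log2 fold change of 0.01 (standard error 0.21) turned negative under other scalings, to -0.0089 with median-of-ratios factors and -0.016 with library size alone.

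Cd247 (chr1:165788681-165877277, plus strand) encodes the zeta chain, which carries more tyrosine motifs than any CD3 chain. It had 223 to 354 CPM in young libraries, with a median of 293, and 358, 284, 379, 263 and 211 CPM in middle-aged ones. The lowest and the highest value of all 11 libraries were both middle-aged. The log2 fold change was 0.06 with a standard error of 0.22. Cd247 lies across from Pou2f1 on the opposite strand, whose counts were at most 7.99% of those of Cd247 in any library, and reads of overlapping genes may not be fully separated since the strandedness of the libraries is not given in the sources used here. For Cd3e, Lck and Zap70 the overlapping genes held at most 1.16% of the gene's own counts.

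The CD8 chains had the same outcome. Cd8a (chr6:71373427-71379173, plus strand), which encodes the alpha chain that binds LCK, had 703 CPM in the lowest, 892 in the median and 940 in the highest young library, and 1015, 864, 711, 816 and 642 CPM in the middle-aged ones. Both the lowest and the highest value were middle-aged. Cd8b1 (chr6:71322788-71337494, plus strand), which encodes the beta chain, had 1364 to 2717 CPM in young libraries with a median of 1874. In middle-aged males it had 2544 and 1892 CPM, and in middle-aged females 1293, 1328 and 1313 CPM. All 3 middle-aged females therefore lay below every other library for Cd8b1, while both middle-aged males lay within the young range. The log2 fold changes were -0.05 (standard error 0.19) for Cd8a and -0.19 (standard error 0.27) for Cd8b1.

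CD5 restrains receptor signalling and CD6 is its neighbour in the genome and in structure. Cd5 (chr19:10718143-10738974, minus strand) had 194 to 380 CPM in young libraries, with a median of 287. It had 250, 285, 208, 258 and 224 CPM in middle-aged ones, all within the young range and with a smaller spread. The mean was 292 ± 63.1 CPM (SD, n = 6) in young and 245 ± 30.1 (SD, n = 5) in middle-aged libraries, and the log2 fold change was -0.25 with a 95% interval from -0.71 to 0.20. Cd6 (chr19:10789341-10830058, minus strand) had 225 to 624 CPM in young libraries, with a median of 497, and 426, 542, 315, 556 and 463 CPM in middle-aged ones. Here too the middle-aged values fell inside the young range, and the log2 fold change was 0.10 with a standard error of 0.30.

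Lck (chr4:129548344-129573641, minus strand), the kinase that starts the phosphorylation of the complex, had 2018 to 4390 CPM in young libraries with a median of 2599.5. It had 2983, 2424, 3099, 2627 and 2184 CPM in middle-aged ones. The value of 4390 CPM belonged to young male 1, and the next young library had 2786 CPM. Without young male 1 the log2 fold change of Lck was 0.13, against -0.02 (standard error 0.24) with all libraries. Zap70 (chr1:36761798-36782818, plus strand), the kinase recruited to the phosphorylated motifs, had 295 to 415 CPM in young libraries with a median of 324, and 349, 333, 315, 346 and 276 CPM in middle-aged ones. It varied least in the set over the 11 libraries, from 276 to 415 CPM, and its log2 fold change was -0.04 (standard error 0.17).

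Single genes were also compared by an exact two-sided permutation test over the 462 placements of the libraries into 6 and 5, which can give no p below 0.00216. For the 10 genes the permutation p ranged from 0.193 for Cd5 to 0.957 for Lck.

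**Figure D2:**
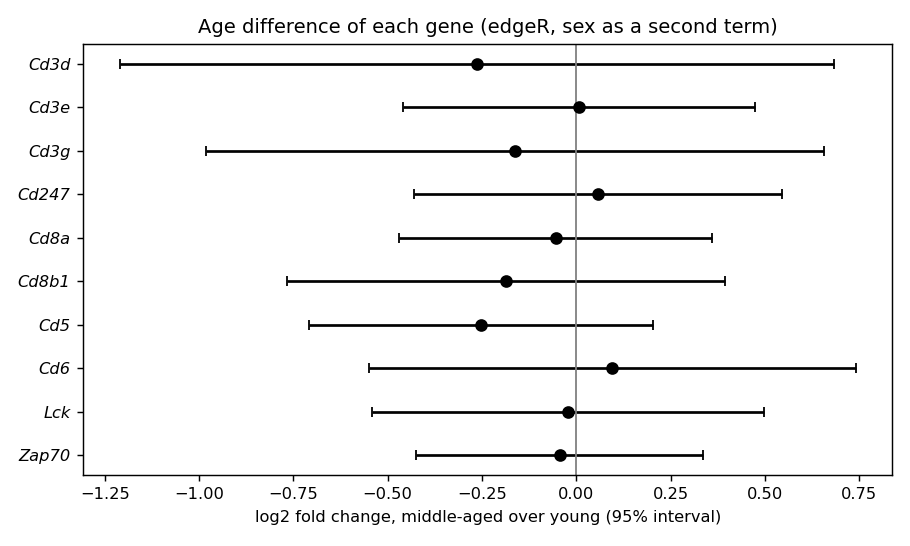
Points give the log2 fold change of each gene (horizontal axis, middle-aged over young, edgeR with sex as a second term) and bars its 95% interval; the vertical line marks no difference. All 10 intervals include 0, from -0.71 to 0.20 for Cd5 and from -1.21 to 0.68 for Cd3d.

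The balance between chains was compared as the log2 ratio of their levels in the same library. The Cd8b1 to Cd8a ratio was 1.12 ± 0.263 (SD, n = 6) in young and 1.01 ± 0.240 (SD, n = 5) in middle-aged libraries on the log2 scale, with overlapping groups and an exact permutation p of 0.498. Cd247 relative to the sum of Cd3d, Cd3e and Cd3g differed by 0.17 (exact permutation p = 0.394), Lck relative to Zap70 by 0.05 (exact permutation p = 0.721), and Fcer1g relative to Cd247 by -0.44 (exact permutation p = 0.262). Fcer1g encodes the Fc receptor gamma chain, which can take the place of zeta. The groups overlapped for all 4 ratios. The summed level of Cd3d, Cd3e, Cd3g and Cd247 was 0.11 lower on the log2 scale in middle-aged libraries (-0.11), with overlapping groups. Within libraries numbered 1, 2 and 3 the difference was -0.31, -0.21 and -0.06.

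No gene of the set passed the test for sex. For male against female, 0 of the 10 genes were called in edgeR, where 0.0381% of all genes were, 0 of 10 had an unadjusted p under 0.05, and the lowest unadjusted p was 0.354. DESeq2 and limma voom also called 0. For the interaction of age and sex, 0 of 10 were called, where 0.00% of all genes were, and 1 gene, Cd8b1, had an unadjusted p under 0.05, where 1.20% of all genes did. Middle-aged minus young, mean log2 CPM of Cd8b1 differed by 0.38 in males and by -0.60 in females (edgeR interaction 1.04, standard error 0.45, unadjusted p = 0.0433, adjusted p = 1.00). With each library left out in turn, the unadjusted edgeR p of this interaction was under 0.05 in 3 of 11 fits and ranged from 0.0135 to 0.161, and it was 0.0847 with every gene of at least 1 count kept. The unadjusted p was 0.0319 in DESeq2, 0.0147 in limma voom and 0.0136 in edgeR with a term for replicate number. None of these fits called Cd8b1 after adjustment. With age permuted within sex over 200 placements, the exact permutation p of the Cd8b1 difference between males and females was 0.045. The log2 ratio of Cd8b1 to Cd8a differed in the same directions, by 0.23 in males and by -0.39 in females (exact permutation p = 0.025). These were 2 of 27 such values tested that fell under 0.05, where 1.35 would at a rate of 1 in 20. The linear ratio was 2.17, 1.93 and 1.89 in young males and 2.51 and 2.19 in middle-aged males. In young females it was 3.08, 2.24 and 1.97, and in middle-aged females 1.82, 1.63 and 2.04. The young and middle-aged males did not overlap, by 2.17 against 2.19 with only 3 and 2 libraries, whereas in females middle-aged female 3 lay above young female 3. The direction was not particular to Cd8b1. Cd3d, Cd3e, Cd3g, Cd247, Cd8a and Cd5 also had positive differences in males and negative ones in females, while Cd6, Lck and Zap70 did not. The lowest exact permutation p of the interaction among these other genes was 0.05, for Cd3e. However, middle-aged males lacked a library numbered 3, which young males had, and these permutations did not take the number into account. In males numbered 1 and 2, log2 CPM of Cd3d was 11.27 and 10.09 in young and 10.88 and 10.03 in middle-aged libraries. That of Cd3g was 11.07 and 10.16 against 10.88 and 10.14, and that of Cd8b1 was 10.97 and 10.77 against 11.31 and 10.89.

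**Figure D3:**
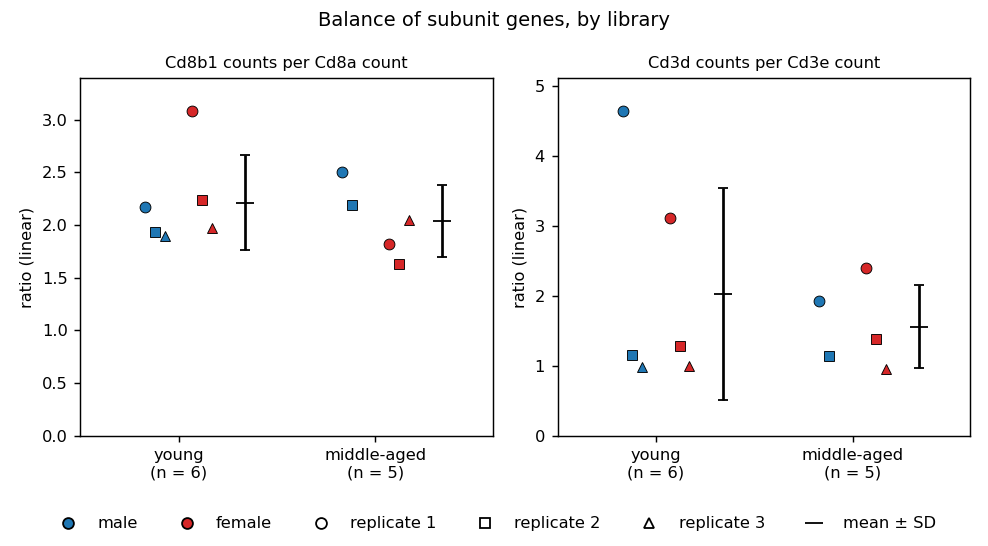
The left panel plots counts of Cd8b1 per count of Cd8a and the right panel counts of Cd3d per count of Cd3e (linear axes from 0), with 1 point per library coloured by sex and shaped by replicate number, and the mean ± SD of each age group. Cd8b1 per Cd8a runs from 1.63 to 3.08, and Cd3d per Cd3e reaches 4.64 in young male 1 while the libraries numbered 2 and 3 stay between 0.947 and 1.38.

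Among the 10 genes the larger differences ran with the replicate number in the labels, from 1 to 3 in each group except middle-aged males, which have 1 and 2. The labels do not tie this number to a day, litter or run. A term for replicate number, chosen after the values were seen, called 4 of the 10 genes (Cd3d, Cd3g, Cd247 and Cd6) in a model with sex and age, where it called 26.3% of all genes tested. Cd3d had 1795 to 2923 CPM in the 4 libraries numbered 1 and 712 to 1161 CPM in the other 7, a mean level 2.47-fold higher (edgeR adjusted p for replicate number 0.000150). Cd3g had 1733 to 2511 against 750 to 1303 CPM, 2.12-fold higher (edgeR adjusted p 0.000187). Cd6 went the other way, with 225 to 426 CPM in libraries numbered 1 against 463 to 624 CPM (0.565-fold, edgeR adjusted p 0.00723). Cd247 overlapped, with 311 to 379 against 211 to 333 CPM (1.36-fold, edgeR adjusted p 0.0107).

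For 3 of the 10 genes the libraries numbered 1 did not overlap the others, which was so for 25.1% of all genes tested. Cd3e, the third CD3 gene, did not follow Cd3d and Cd3g. It had 533 to 984 CPM in the libraries numbered 1 and 661 to 944 CPM in the others (0.965-fold, edgeR adjusted p 0.845). Cd3d per count of Cd3e was accordingly 4.64, 3.11, 1.92 and 2.40 in young male 1, young female 1, middle-aged male 1 and middle-aged female 1. In all of the libraries numbered 2 or 3 it was at most 1.38. Lck, Zap70, Cd8a, Cd8b1 and Cd5 were not called for replicate number by edgeR, with ranges that overlapped, and limma voom called 6 of the 10 genes, adding Cd8a and Lck, where it called 34.2% of all genes tested.

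Other measures also moved with the number. The slope of log2 CPM on gene length over all genes tested was -0.265 to -0.0944 per doubling of length in the libraries numbered 1, 0.0142 to 0.0887 in those numbered 2, and 0.158 to 0.183 in those numbered 3, so that shorter genes stood relatively higher in libraries numbered 1. The 10 genes range from 1483 bases (Cd8b1) and 1815 bases (Cd3d) to 4080 (Cd3e) and 5329 bases (Cd247) in the length the table gives. Of the 4 genes called for replicate number, Cd3d (1815 bases), Cd3g (3269) and Cd247 (5329) were higher in libraries numbered 1 and Cd6 (3404) was lower. The part of gene length and of depth in these differences was not tested. Within each number, middle-aged minus young, mean log2 CPM of Cd3d differed by -0.55, -0.20 and -0.078 in libraries numbered 1, 2 and 3, and that of Cd3g by -0.36, -0.21 and -0.089. The 2 shallowest libraries, young male 1 and young female 1, had the 2 highest values of Cd3d (2476 and 2923 CPM) and of Cd3g (2146 and 2511 CPM). Without the 2 libraries below 10000000 counts, the log2 fold change for age was 0.42 for Cd3d and 0.34 for Cd3g, neither of them called. Those 2 were the young libraries numbered 1, so the libraries numbered 1 that remained were all middle-aged. In that fit, differences by age and by replicate number cannot be fully told apart.

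**Figure D4:**
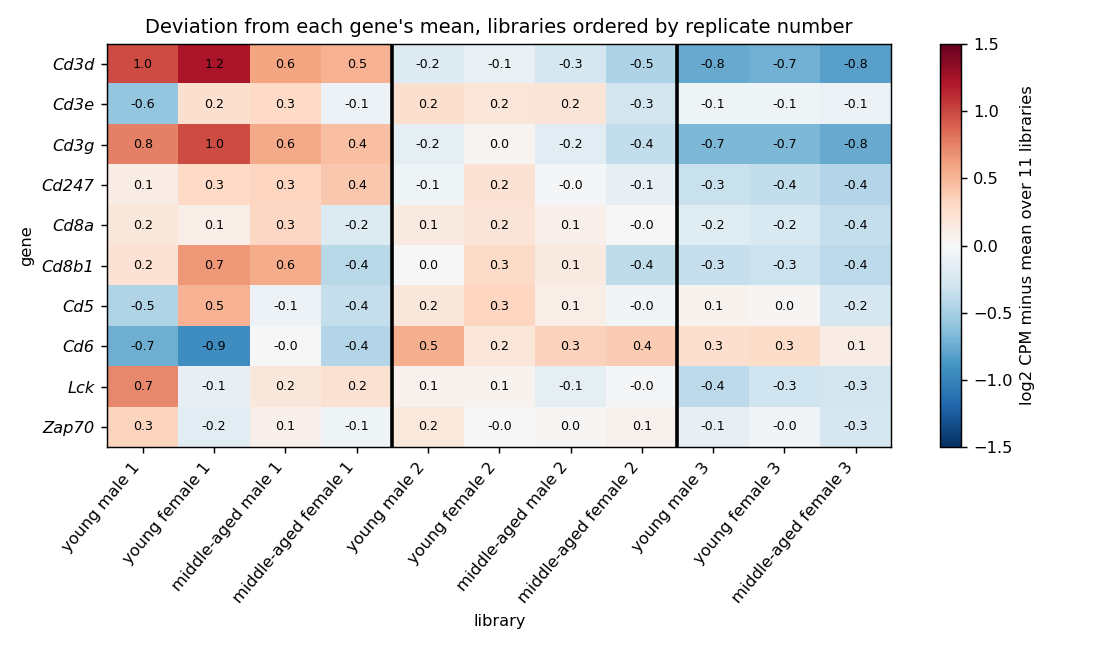
Each cell gives a gene's log2 CPM in a library minus its mean over the 11 libraries (red above, blue below), with libraries ordered by replicate number and thick lines between the numbers. Cd3d and Cd3g are red in the 4 libraries numbered 1 and mostly blue elsewhere, Cd6 is blue or near its mean in those 4, and Zap70 stays close to its mean throughout.

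Cd3d and Cd3g were the pair of the set whose levels ran closest together. After each gene was centred on its mean, their root mean square difference over the 11 libraries was 0.123 on the log2 scale, against a standard deviation of 0.72 for Cd3d and 0.61 for Cd3g alone. Their starts lie 1355 bases apart on chromosome 9 and the genes run in opposite directions, while the start of Cd3e is 27841 bases from that of Cd3d. The promoter sequences of these 3 neighbouring genes are shown because 2 of them moved together and 1 did not. They are RefSeq sequences of GRCm38.p6, from 250 bases before to 50 bases after the start, read along each gene (Cd3d at chr9:44981536-44981835 on the plus strand, Cd3g at chr9:44980382-44980681 and Cd3e at chr9:45009562-45009861 on the minus strand). Capitals mark matches, on either strand, to the letters of an ETS motif (AGGAAG, or CTTCCT on the other strand) or a GATA motif (AGATAA).
Cd3d: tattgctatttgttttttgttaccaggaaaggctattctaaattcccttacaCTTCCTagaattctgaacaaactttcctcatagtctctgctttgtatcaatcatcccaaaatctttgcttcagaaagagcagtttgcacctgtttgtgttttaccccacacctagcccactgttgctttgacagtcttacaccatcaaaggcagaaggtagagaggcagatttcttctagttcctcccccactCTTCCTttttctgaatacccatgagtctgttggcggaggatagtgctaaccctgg
Cd3g: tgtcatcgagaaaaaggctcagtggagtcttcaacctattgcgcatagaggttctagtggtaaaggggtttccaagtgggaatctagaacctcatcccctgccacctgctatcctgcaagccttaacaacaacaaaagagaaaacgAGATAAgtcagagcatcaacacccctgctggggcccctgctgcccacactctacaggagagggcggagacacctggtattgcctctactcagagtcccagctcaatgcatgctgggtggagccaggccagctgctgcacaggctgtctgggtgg
Cd3e: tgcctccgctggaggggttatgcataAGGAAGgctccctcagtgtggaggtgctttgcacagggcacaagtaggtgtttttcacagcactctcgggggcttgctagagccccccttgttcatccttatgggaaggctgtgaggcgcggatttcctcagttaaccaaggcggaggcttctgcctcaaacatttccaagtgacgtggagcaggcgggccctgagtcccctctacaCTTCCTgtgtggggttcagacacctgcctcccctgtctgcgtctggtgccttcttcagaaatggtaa

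The Cd3d and Cd3e promoters each held 2 ETS matches, and 35.4% of all 32851 promoters in the table held at least 1. The Cd3g promoter held 1 GATA match, which 11.2% of promoters held. None of these 3 promoters held the RUNX letters TGTGGT (16.8% of promoters, ACCACA on the other strand) or the TATA letters TATAAA (13.6%, TTTATA on the other strand). The matches describe letters in these windows and were not related to the measured levels.

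For Cd3e and Cd8b1 the genes with the most similar pattern over the 11 libraries were looked up among all genes tested, by the same root mean square difference. For Cd3e, whose own standard deviation was 0.27, they were Sgk1 (0.109), Ppp1r18 (0.110) and Ubald1 (0.123), where the median gene tested differed by 0.71. For Cd8b1, with a standard deviation of 0.40, they were Cisd2 (0.145), Eif4ebp2 (0.146) and Ino80b (0.148), where the median was 0.77.

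The wider receptor pathway was followed in 75 further genes from 7 lists, all of them tested. In edgeR 0 of the 75 were called for age, and 3 had an unadjusted p under 0.05, which is 4% of the lists beside 2.99% of all genes. All 3 (Trat1, Tec and Lef1) were lower in middle-aged libraries, where 0.990% of all genes were lower at that threshold. For 2 of the 75, Trat1 and Tec, the age groups did not overlap, which was so for 1.31% of all genes. The median log2 fold change of the 75 genes was 0.0023. DESeq2 called 2 of the 75 (Trat1 and Tec), where it called 0.853% of all genes, and limma voom 3 (Trat1, Tec and Tyrobp), where it called 1.05%. With every gene of at least 1 count kept, edgeR called 1 (Trat1), where it called 0.0678% of all genes.

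Among 21 proximal adaptors and effectors, 2 had an unadjusted p under 0.05 and the median log2 fold change was -0.03. Trat1 encodes TRIM, an adaptor that associates with the zeta chain. Its young libraries had 12.9 CPM at the lowest, 23.6 at the median and 65.1 at the highest, and its middle-aged libraries had 3.95, 2.95, 6.14, 11.9 and 2.99 CPM. Every middle-aged library lay below every young one, and the highest values, 65.1 and 35.5 CPM, came from young male 1 and young female 1. Its fitted difference was -2.47 on the log2 scale with a standard error of 0.57 (edgeR unadjusted p = 0.00105, adjusted p = 0.334), and the adjusted p was 0.00114 in DESeq2 and 0.0115 in limma voom. Without the 2 libraries below 10000000 counts it was -1.87.

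Tec, which encodes a tyrosine kinase, had 96.8 to 161 CPM in young libraries with a median of 113. It had 81.0, 69.4, 67.7, 38.5 and 53.0 CPM in middle-aged ones, again with no overlap. The log2 fold change was -0.94 with a standard error of 0.24 (edgeR unadjusted p = 0.00211, adjusted p = 0.454), and the adjusted p was 0.0165 in DESeq2 and 0.0171 in limma voom. The higher-ranked genes of this list in the other direction were Txk (0.35), Fyn (0.38) and Grb2 (0.23), given as log2 fold changes, none with an unadjusted p under 0.05 in edgeR.

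The constant genes of the receptor chains, Trac, Trbc1 and Trbc2, had log2 fold changes of -0.41, -0.27 and -0.29, none of them called and none with an unadjusted p under 0.05. Trac ranged from 1213 to 2996 CPM in the young group and, overlapping it, from 1009 to 2176 in the middle-aged group. Of the 3 other signalling chains, Tyrobp, which encodes DAP12, was fitted at -0.88 on the log2 scale with a standard error of 0.45 and an adjusted p of 1.00 in edgeR. It had 49.6 to 173 CPM in young libraries and 30.1 to 47.9 CPM in middle-aged ones other than middle-aged female 2. Middle-aged female 2 had 188 CPM, and it is the library with the high myeloid sum, most of it Lyz2. Tyrobp is used by NK and myeloid cells too, and the part of such cells in its level was not tested. Of the 8 NK cell genes, 7 had negative and 1 a positive log2 fold change, and 4 were lower in middle-aged libraries at an unadjusted p under 0.05, where 0.990% of all genes were. Ncr1, an NK cell receptor gene, had a mean of 70.4 CPM in young against 18.0 in middle-aged libraries, and Styk1 had 8.82 against 10.4. Klrb1a and Klrb1b of this list are genes that the paper reports as lower in middle-aged CD8+ Tregs. The paper also reports other NK cell genes as higher there, among them Klrk1, Klrc1, Klrc2, Klrc3 and Fcgr2b. It further reports enrichment of an NK cell signature at middle age. Those higher genes are not among the 8 genes here.

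The remaining lists held no gene called. Of 17 genes listed under restraint of receptor signalling, 0 had an unadjusted p under 0.05. The log2 fold change was above 0 for 10 of them and below 0 for 7, and the median was 0.05. Ubash3a, a phosphatase family member, had 0.38. Of 15 genes of the downstream branches 0 had an unadjusted p under 0.05, 12 were positive and 3 negative, and the median was 0.11, with Bcl10, an adaptor of NF-kB signalling, at 0.24. The 4 other coreceptor and accessory receptors (Cd4, Cd2, Cd28 and Cd226) all had negative values, with a median of -0.23, and none had an unadjusted p under 0.05. For Cd4 the fitted value of -0.33 (standard error 0.92) was opposite in sign to the difference of its means, 6.98 CPM in young and 7.39 in middle-aged libraries.

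**Figure D5:**
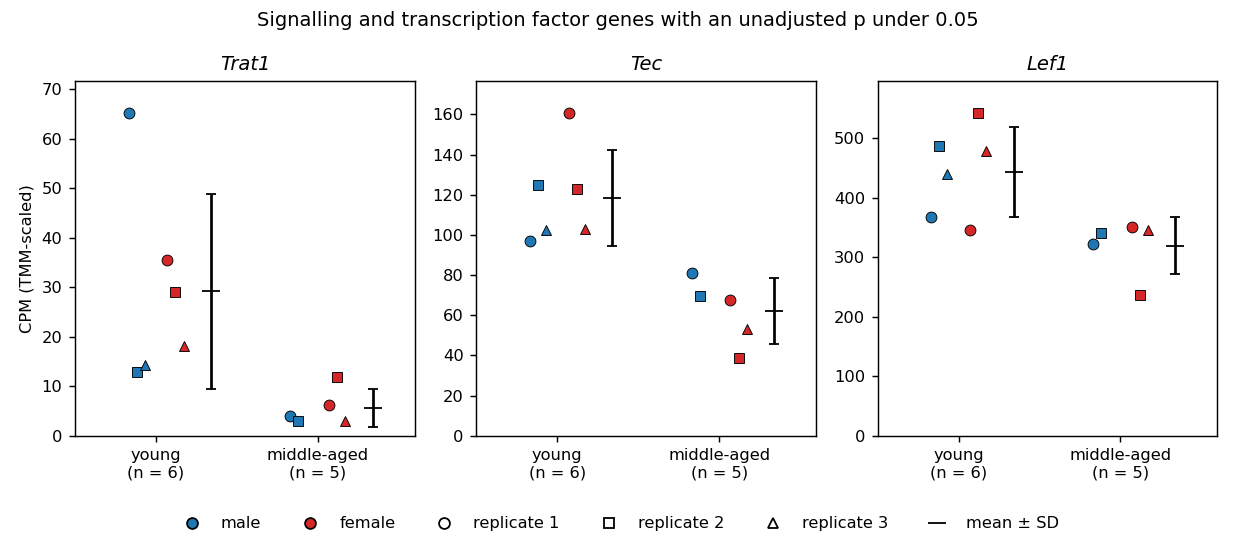
Each panel plots 1 gene in CPM (linear axis from 0), with 1 point per library coloured by sex and shaped by replicate number, and the mean ± SD of each age group beside the points. For Trat1 and Tec every middle-aged point lies below every young one, and for Lef1 the age groups overlap.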

How the data were processed

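The authors deposited counts of reads per Ensembl gene for 11 libraries, without normalization. Kallisto and the mouse build mm10 are named in the submitters' processing notes, without a version or role, and the strandedness and annotation are not given in the sources used here. Coordinates are those of the counts table, and 9 of the 10 genes matched GENCODE vM21 exactly (not Cd5). No column was left unused (0). The 13129 genes tested passed filterByExpr for the age groups, at a minimum count of 10 and a minimum total of 15, and were fitted in edgeR 4.0.16 (R 4.3.3) with TMM factors, glmQLFit with robust estimation and glmQLFTest in a model with sex and age, with Benjamini-Hochberg adjustment over all genes tested. Log2 CPM used a prior count of 2. The limit of 3 counts covers counting error only. Steps were tested on simulated data. Alternatives included DESeq2 1.42.0, limma 3.58.1 (voom), other scalings and filters, each sex alone, a block for replicate number, and each library left out. Whether a library holds 1 mouse or several is not given in the sources used here, so p-values measure the spread between libraries. The 10 genes, the lists, the markers and the tests were chosen with earlier results of these data known. Beyond the 10 genes, those named were the up to 5 higher and 5 lower of the 75 pathway genes with the smallest p, the 3 genes most like Cd3e and Cd8b1, and markers. Trac, Trbc1 and Trbc2, Cd4, Cd2 and Cd28, Ncr1 and the other single marker genes were named as list members after their values were seen. Promoters came from a RefSeq table of GRCm38.p6, which held 8 of the 10 genes (not Cd8b1 and Cd6).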

Additional observations from a re-analysis of the deposited data

Results flagged for a closer look

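Of 54 age groups checked, 4 held 1 library far from the others by Dixon's test, where about 1 in 20 (2.7) would by chance. Lck had 4390 CPM in young male 1, against 2786 in the next young library. Lef1 had 236.1 CPM in middle-aged female 2, against 322.7 in the next middle-aged library. Tyrobp had 188.3 CPM in the same library, against 47.92 in the next. The log2 ratio of Cd8b1 to Cd8a was 1.624 in young female 1, against 1.16 in the next young library.

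The age difference of Cd8b1 differed between males and females by 0.9844 on the log2(CPM + 1) scale, and that of the log2 ratio of Cd8b1 to Cd8a by 0.6199, by exact permutation tests with 200 placements (p = 0.045 and p = 0.025). The ratio of Cd8b1 to Cd8a rests partly on young female 1, whose value is the highest of all 11 libraries. The edgeR interaction of Cd8b1 had an adjusted p of 1.00.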

How the results depend on the processing

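For age, 0 of the 10 genes were called under all 27 alternatives, and 0 for sex and for the interaction under 15 each. The count for replicate number was 4, 3 with library size alone and 6 with limma voom, and 3 to 5 with each library left out. Of the 75 pathway genes, 0 became 2 in DESeq2, 3 in limma voom and 1 with at least 1 count. DESeq2 called 112 and limma voom 138 of all genes for age, against 3 in edgeR. The sign of the small age differences depended on the setting, and the cause was not tested. In limma voom the log2 fold change was 0.14 for Cd3d, 0.15 for Cd3g, 0.011 for Cd8a, 0.068 for Cd8b1, -0.087 for Cd6 and 0.042 for Lck. In males alone (no middle-aged library numbered 3) it was 0.034 for Cd3d, 0.15 for Cd3g and Cd8a, 0.38 for Cd8b1 and 0.064 for Cd5. In females alone it was -0.26 for Cd3e, -0.083 for Cd247 and 0.11 for Lck. Without the 2 libraries below 10000000 counts, every library numbered 1 was middle-aged. The log2 fold change was then 0.42 for Cd3d, 0.34 for Cd3g, -0.055 for Cd3e, -0.21 for Cd6 and 0.12 for Lck. Without the 4 libraries numbered 1, an alternative chosen after the values were seen, it was -0.097 for Cd3e, -0.065 for Cd247 and -0.011 for Cd6. For Cd3e it was -0.0089 with median-of-ratios factors, -0.0075 with upper-quartile factors, -0.016 with library size alone and -0.0090 in DESeq2.

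With each library left out in turn, the log2 fold change ranged from -0.48 to 0.14 for Cd3d, -0.099 to 0.074 for Cd3e, -0.36 to 0.14 for Cd3g, -0.049 to 0.16 for Cd247, -0.13 to 0.0057 for Cd8a, -0.37 to -0.014 for Cd8b1, -0.054 to 0.21 for Cd6, -0.10 to 0.13 for Lck and -0.087 to 0.0036 for Zap70. The log2 ratio of Lck to Zap70 ranged from -0.020 to 0.13 and the summed level of Cd3d, Cd3e, Cd3g and Cd247 from -0.24 to 0.058. The log2 ratio of Cd8b1 to Cd8a ranged from -0.19 to -0.015, that of Fcer1g to Cd247 from -0.68 to -0.22 and that of Cd247 to the CD3 sum from 0.059 to 0.23. The highest values of Cd3d, Cd3g, Cd8b1, its ratio to Cd8a and the summed level came without young female 1, and those of Lck, Zap70 and their ratio without young male 1.

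The replicate numbers are shared by the groups, but the labels do not say what they mark. Deviations from the group means correlated over 0.1 in 13 of 15 pairs of libraries with the same number (0.025 to 0.558), and 9 of 11 libraries correlated best with one of their own number, so a correlation over 0.1 in every pair, the condition set for pairing, was not met, and the block is given as an alternative only. With a replicate block, 19 genes of all tested were called for age, 2 with the block within sex and 0 with the block and a gene length slope, against 3 without, and 0 of the 10 genes each time. With the replicate block 2 of the 10 genes, Cd3d and Cd3g, had an unadjusted p under 0.05 (edgeR adjusted p 0.486 and 0.549), and 16 of the 75 pathway genes did, where 8.87% of all genes tested did. With the block within sex, and with the block and the length slope, 0 of the 10 genes had such a p. In these 2 fits the log2 fold change was -0.32 and -0.11 for Cd3d, and -0.25 and -0.072 for Cd3g. The log2 fold change was -0.0022 for Cd3e and -0.032 for Cd247 with the replicate block, -0.014 for Cd247 with the block within sex, and -0.056 for Cd247, 0.043 for Cd8a and 0.26 for Cd8b1 with the block and the length slope. The summed level of the CD3 and zeta genes differed by -0.197 with the replicate block, past the threshold when permuted within number. It was not past the threshold when permuted over all libraries without the block (-0.107) or within sex (-0.068). Depth limited young male 1 and young female 1 most, and the wide intervals of Cd3d and Cd3g allow age differences of over 1.5-fold in either direction.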

Other observations

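Of 12 transcription factors of T cell and CD8 identity, 0 were called for age in edgeR, the log2 fold change was above 0 for 7 and below 0 for 5, and the median was 0.07. Lef1, a factor of naive and memory-like T cells, had 345 to 542 CPM in young libraries with a median of 459, and 323, 340.4, 350.0, 236 and 346 CPM in middle-aged ones. The age groups overlapped by the values of young female 1 (345 CPM) and the middle-aged libraries up to 350.0 CPM. The log2 fold change was -0.47 with a standard error of 0.20 (edgeR unadjusted p = 0.0381, adjusted p = 1.00), and it stayed between -0.66 and -0.38 under all 27 alternatives, none of which called it.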
